A study of Homo sapiens with 8 samples.

Results

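CCRF-CEM was compared with HPB-ALL, array by array, with the 4 constructs of the study as pairs. Both are established human cell lines of T-ALL, acute lymphoblastic leukaemia of T cells. The members are all 8 arrays of the series, assigned by title: 4 labelled CCRF-CEM and 4 labelled HPB-ALL. Each line has 1 array of cells carrying a scramble short hairpin RNA (shRNA), 1 with the TOX hairpin shTOX-1, 1 with the TOX hairpin shTOX-2, and 1 of untransduced cells. Transduced cells had been spinoculated, kept under puromycin and taken no sooner than 2 weeks later, and all 8 cultures were grown in RPMI with serum. Total RNA was read on Affymetrix arrays after labelling by the GeneChip WT Plus protocol. No label says that the arrays of a line came from separate cultures, or whether a line was 1 clone, so the p-values speak to array-to-array spread alone, and some of it may be technical.

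T-ALL cells are leukaemic counterparts of thymocytes, and a line tends to keep traits of the step at which its development stopped. Cortical thymocytes carry CD1 molecules, CD4 and CD8, rearrange the T cell receptor genes with the RAG recombinase, and use the pre-T cell receptor chain PTCRA. Later, mature thymocytes gain CD27, CD28, CD69 and the egress receptor S1PR1, and signal through the receptor by way of the kinases LCK and ZAP70 and the adaptors LAT and LCP2.

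Values are log2 intensities, and a difference is always HPB-ALL minus CCRF-CEM unless a sentence names the line that was higher. Of 14884 measured genes, 8930 had a mean over the 8 arrays at or above the 40th percentile of gene means, a log2 level of 5.18 called the filter level here, and these were tested. Array medians lay between 4.62 and 4.71. How the values were normalized is not given, and normalization can make medians alike. The medians therefore cannot tell whether the lines differ by a global shift. The correlation over tested genes, which are not independent replicates, was 0.949 to 0.985 within a line and 0.876 to 0.908 between the lines. In a bulk sample, fewer cells of a kind and less RNA per cell cannot be told apart.

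The labels were first set against genes known to mark these lines. CCRF-CEM is known for a rearrangement that activates the homeobox gene NKX2-5, and HPB-ALL for one that activates the homeobox gene TLX3. NKX2-5 read 9.74, 9.84, 9.87 and 10.15 in the CCRF-CEM arrays (here and below in the order scramble, shTOX-1, shTOX-2, untransduced) and 9.21, 8.99, 8.84 and 9.61 in the HPB-ALL arrays. It was thus high in both lines, 0.74 ± 0.12 higher in CCRF-CEM (limma, standard error, adjusted p = 0.00276). TLX3 lay between 5.48 and 5.74 on all 8 arrays, close to the filter level, with a difference of -0.06 ± 0.11 (adjusted p = 0.723). The arrays labelled HPB-ALL therefore do not carry the TLX3 signal known for that line, while they carry NKX2-5; HPB-ALL below means the arrays with that label, and the identity of the cells was not tested. TOX, the gene targeted by the hairpins, read 11.03, 10.65, 9.86 and 11.03 in CCRF-CEM against 10.59, 10.16, 8.75 and 10.64 in HPB-ALL. In both lines its lowest value was in the shTOX-2 array, and it was 0.61 ± 0.14 higher in CCRF-CEM (adjusted p = 0.0131), with overlapping arrays. Without construct as a pairing block the TOX difference was not called (adjusted p = 0.312).

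At an adjusted p under 0.05, 1582 genes were higher in HPB-ALL (17.7% of those tested) and 1325 were higher in CCRF-CEM (14.8%), together 2907 (32.6%). With a log2 difference of at least 1 as well, 335 were higher in HPB-ALL (3.75%) and 402 in CCRF-CEM (4.5%), together 737 (8.25%). The arrays of the lines did not overlap for 2409 genes (27%). Among genes called with a difference of at least 3, 71 were higher in CCRF-CEM and 17 in HPB-ALL. The median absolute difference over all tested genes was 0.238, and the median difference was 0.0056, so the larger differences below are read against a centre close to 0. These percentages are the background for each count of list members below.

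**Figure D1:**
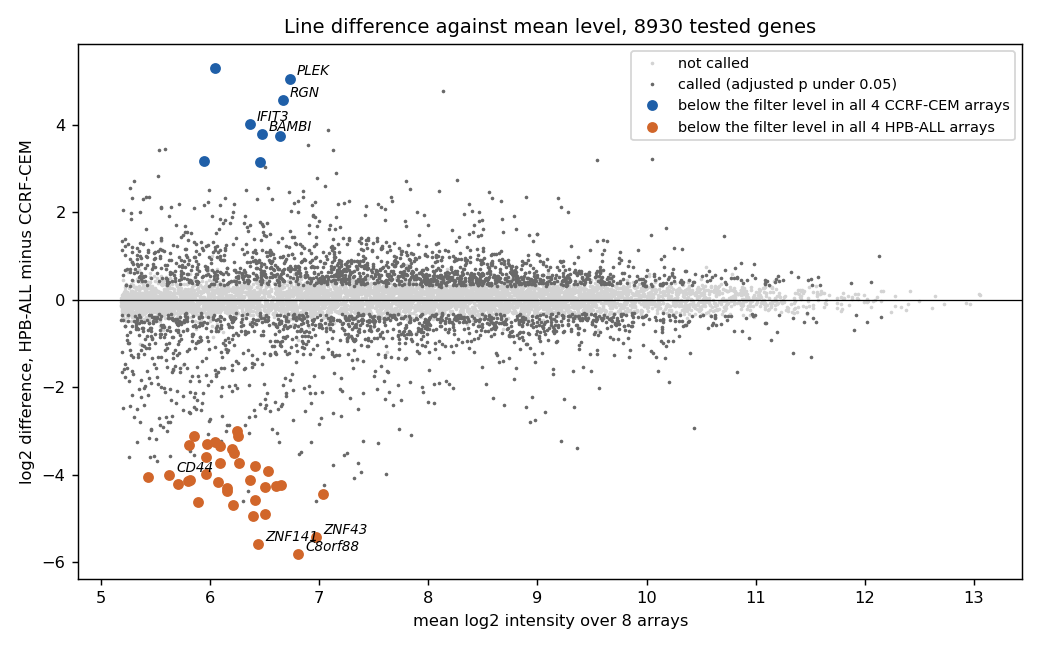
Log2 difference, HPB-ALL minus CCRF-CEM (vertical axis), against the mean log2 intensity over 8 arrays (horizontal axis) for the 8930 tested genes; light points were not called and dark points were called at an adjusted p under 0.05. Filled circles mark genes below the filter level in all 4 arrays of one line and at least 2 log2 units above it in all 4 of the other: 36 such genes below in HPB-ALL and 8 of the 9 below in CCRF-CEM, the ninth being below the filter for the mean.

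The cortical thymocyte genes were higher in CCRF-CEM or not called. Of 19 listed genes 16 were measured and tested: 13 were called higher in CCRF-CEM, 12 of them by at least 1 log2 unit, 0 were called higher in HPB-ALL, and the median difference was -1.98. Refits without each construct in turn counted 10 to 12 genes of the list past 1 log2 unit in CCRF-CEM. In 6 of the 16 the mean of one line lay below the filter level, so that these passed the filter through the other line and had to differ. The list was chosen with earlier results of these data known, and its count is a description beside the background of 4.5%.

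The CD1 genes, which encode the lipid-presenting molecules of cortical thymocytes, included CD1E, CD1A, CD1C and CD1B, the largest differences of this list. CD1E read 9.25, 7.93, 6.81 and 10.41 in CCRF-CEM against 4.27, 3.66, 4.07 and 3.97 in HPB-ALL, a 24.4-fold higher intensity in CCRF-CEM (log2 difference -4.61 ± 0.49, adjusted p = 0.000289). CD1A read 8.97, 7.86, 6.91 and 10.37 against 4.01, 4.82, 4.14 and 3.66 (20.7-fold higher in CCRF-CEM, adjusted p = 0.000956). CD1C read 8.74, 8.28, 7.39 and 10.18 against 4.02, 4.46, 4.48 and 4.48 (19.5-fold, adjusted p = 0.000111). For these 3 genes every HPB-ALL array lay below the filter level and every CCRF-CEM array above it, the untransduced CCRF-CEM array being the highest and the shTOX-2 array the lowest. CD1B read 7.45, 6.34, 5.39 and 9.94 against 3.45, 3.49, 3.82 and 4.02 (log2 difference -3.58 ± 0.58, adjusted p = 0.00253). CD1D, which presents lipids to natural killer T cells, read 8.49, 7.04, 6.48 and 7.84 against 5.78, 5.56, 5.37 and 5.39 (-1.94 ± 0.25, adjusted p = 0.000938). The lines were apart on every pair for the 5 CD1 genes. Of these, CD1A, CD1B, CD1C and CD1E passed the filter through CCRF-CEM and had to differ, while CD1D lay above it in both lines. The spread within CCRF-CEM for CD1B, 1.96 (SD, n = 4), was several times that within HPB-ALL, 0.27. Where a line lies below the filter level the fold is one of intensities, and no detection call was used here that would separate low RNA from none.

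The CD1 genes are neighbours on chromosome 1, and the bases before 2 of their start sites are shown because these genes moved together. The 250 bases before the start, 5′ to 3′ on the gene's strand, are from RefSeq on GRCh38.p14, with CG dinucleotides in capitals; CD1A is at chr1:158248086-158248335, plus strand, and CD1E at chr1:158353644-158353893, plus strand.
CD1A: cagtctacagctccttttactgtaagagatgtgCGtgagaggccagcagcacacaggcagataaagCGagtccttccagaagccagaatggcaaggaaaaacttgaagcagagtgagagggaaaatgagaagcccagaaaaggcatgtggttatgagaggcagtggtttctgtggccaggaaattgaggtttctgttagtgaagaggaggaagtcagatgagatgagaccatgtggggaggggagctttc
CD1E: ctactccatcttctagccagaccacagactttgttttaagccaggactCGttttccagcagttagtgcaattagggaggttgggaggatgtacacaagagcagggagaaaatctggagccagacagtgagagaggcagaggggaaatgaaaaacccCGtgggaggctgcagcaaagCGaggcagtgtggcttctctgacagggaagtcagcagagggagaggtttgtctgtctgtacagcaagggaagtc
CD1A holds 2 and CD1E 3 CG dinucleotides in this window. Over the 9 cortical genes called at least 1 log2 unit higher in CCRF-CEM that had an entry, the median was 3, and 2 of 9 held at least 10. Over all 6988 tested genes with an entry the median was 21, and 84.6% held at least 10. These counts describe sequence only, and methylation was not measured.

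The coreceptor and pre-receptor genes went the same way. CD4, the coreceptor for MHC class II, read 7.71, 9.01, 8.42 and 8.97 in CCRF-CEM against 7.17, 6.37, 6.46 and 6.64 in HPB-ALL (-1.87 ± 0.30, adjusted p = 0.00254). CD8A, a chain of the coreceptor for MHC class I, read 7.56, 7.78, 7.54 and 8.60 against 5.72, 6.0, 5.88 and 5.77 (-2.03 ± 0.19, adjusted p = 0.000162). The arrays of the lines did not overlap for either gene, whereas those of the partner chain CD8B did, with means of 5.43 and 4.98 near the filter level (-0.46 ± 0.13, adjusted p = 0.0327). The CD8B call was lost without the shTOX-2 pair or the untransduced pair (adjusted p = 0.13 and 0.118) and under quantile normalization (0.0759). PTCRA, which pairs with the beta chain in immature thymocytes, read 7.84, 9.07, 8.64 and 11.15 against 6.90, 6.62, 6.46 and 7.30 (-2.35 ± 0.38, adjusted p = 0.00261). In both lines the untransduced array was the highest for PTCRA, by over 2 log2 units in CCRF-CEM. CD38, an ectoenzyme abundant on cortical thymocytes, read 11.06, 10.95, 10.91 and 11.30 against 9.06, 7.69, 7.05 and 6.87 (10.5-fold higher in CCRF-CEM, adjusted p = 0.000205). CD5, a brake on receptor signalling, was 4.78-fold higher in CCRF-CEM (means 9.72 ± 0.20 and 7.47 ± 0.67, SD, n = 4, adjusted p = 0.000104).

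The recombinase genes did not separate the lines. RAG1 had means of 5.47 ± 0.47 and 4.98 ± 0.18 (CCRF-CEM, HPB-ALL, SD, n = 4), with a difference of -0.50 ± 0.18 and an adjusted p of 0.0697. RAG2 read 9.32, 9.46, 9.28 and 10.58 against 9.24, 9.52, 9.47 and 9.63, with a difference of -0.19 ± 0.18 and an adjusted p of 0.452. The untransduced CCRF-CEM array held the highest value of both, and the other arrays of the lines overlapped. ELOVL4, a fatty acid elongase, had means of 11.65 and 10.00 (-1.65 ± 0.15, adjusted p = 0.000145). CCR9, the chemokine receptor that guides progenitors and thymocytes, read 6.64, 6.52, 6.17 and 9.06 against 6.20, 5.14, 5.48 and 5.34 (-1.55 ± 0.47, adjusted p = 0.0374), and without the untransduced pair its difference was -0.84 (adjusted p = 0.0179). The CCR9 call was lost without the shTOX-1 or the shTOX-2 pair (adjusted p = 0.0648 and 0.0529) and without the pairing block (0.0604).

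**Figure D2:**
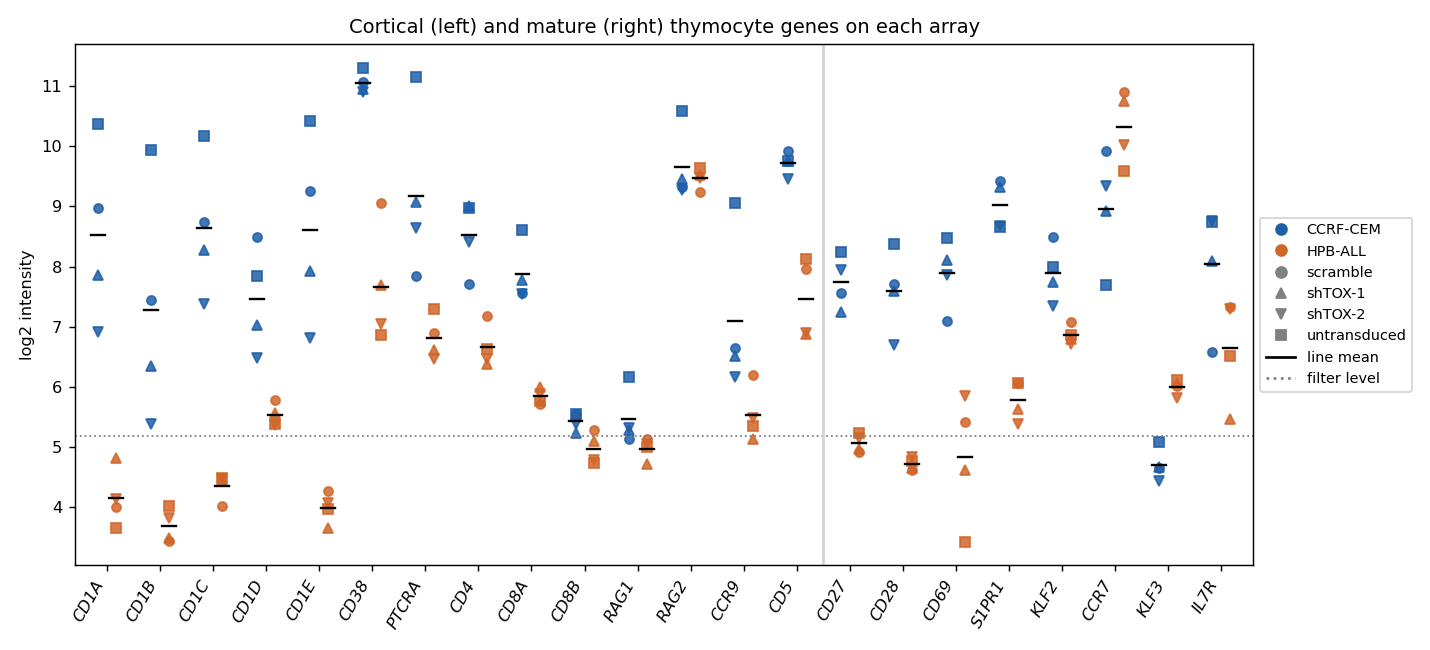
Log2 intensity (vertical axis) of cortical genes, left of the grey line, and mature thymocyte genes, right of it, with 1 point per array, colour for the line, symbol for the construct, a bar for the mean of a line's 4 arrays and a dotted line at the filter level of 5.18. CD1A, CD1B, CD1C and CD1E lie below the filter level in all HPB-ALL arrays, RAG2 overlaps, and CCR7 and KLF3 are the genes whose HPB-ALL mean is higher.

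Genes of mature thymocytes and of egress differed in both directions, mostly with higher values in CCRF-CEM. Of 19 listed genes 12 were measured and 11 tested: 8 were called higher in CCRF-CEM and 2 in HPB-ALL, all 10 by at least 1 log2 unit, with a median of -1.39, against backgrounds of 4.5% and 3.75%. In 5 genes of the list the mean of one line lay below the filter level. CD27, CD28, CD69 and KLF3 were among them, so these passed through the other line and had to differ. S1PR1, the sphingosine receptor that lets T cells leave the thymus, read 9.42, 9.33, 8.67 and 8.66 in CCRF-CEM against 6.07, 5.63, 5.39 and 6.07 in HPB-ALL (9.38-fold higher in CCRF-CEM, adjusted p = 7.64e-06). CD27, a costimulatory receptor of the tumour necrosis factor family, read 7.56, 7.24, 7.94 and 8.24 against 4.92, 4.98, 5.16 and 5.24 (-2.67 ± 0.13, adjusted p = 5.95e-06). CD28, the main costimulatory receptor of T cells, read 7.70, 7.60, 6.70 and 8.38 against 4.61, 4.65, 4.84 and 4.77 (-2.88 ± 0.25, adjusted p = 9.12e-05). All 3 had no overlap between the lines, but CD27 and CD28 had passed the filter through CCRF-CEM. CD69, an activation marker that holds S1PR1 inside the cell, read 7.10, 8.11, 7.85 and 8.47 against 5.41, 4.63, 5.85 and 3.43, with its widest spread in HPB-ALL (-3.05 ± 0.49, adjusted p = 0.00235).

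KLF2, a transcription factor that activates S1PR1, had means of 7.90 ± 0.48 and 6.86 ± 0.16 (-1.03 ± 0.14, adjusted p = 0.000959). CD96, an adhesion receptor of T and NK cells, was 5.51-fold higher in CCRF-CEM (adjusted p = 6.27e-05). IL7R, the receptor of a survival cytokine, read 6.59, 8.10, 8.76 and 8.73 against 7.33, 5.47, 7.29 and 6.52, with overlapping arrays and no call (-1.39 ± 0.47, adjusted p = 0.0556). The members higher in HPB-ALL were CCR7, the receptor for lymph node chemokines, and the transcription factor KLF3. CCR7 read 9.92, 8.92, 9.33 and 7.69 against 10.90, 10.75, 10.01 and 9.59, and was 1.35 ± 0.21 higher in HPB-ALL although the scramble CCRF-CEM array lay above the untransduced HPB-ALL array (adjusted p = 0.00222). KLF3 read 4.65, 4.67, 4.44 and 5.09 against 6.01, 6.06, 5.82 and 6.11 (1.29 ± 0.11, adjusted p = 8.97e-05).

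Receptor signalling genes were mostly higher in CCRF-CEM. Of 43 listed genes 26 were measured and 24 tested. In CCRF-CEM 18 were called higher, 14 of them by at least 1 log2 unit. In HPB-ALL 4 were called higher, 1 of them by at least 1. The calls were 91.7% of the tested members, beside 32.6% of all tested genes. Past 1 log2 unit the shares were 58.3% and 4.2%, against backgrounds of 4.5% and 3.75%. The median was -1.25, no tested member had a line mean below the filter level, and leaving out each construct in turn gave 12 to 14 genes past 1 log2 unit. CD247, the zeta chain of the receptor complex, read 8.53, 8.90, 8.33 and 8.66 in CCRF-CEM against 6.18, 6.14, 5.46 and 6.65 in HPB-ALL (-2.50 ± 0.15, adjusted p = 1.59e-05). LCK, the kinase that phosphorylates it, read 9.93, 9.92, 9.74 and 9.98 against 7.80, 7.24, 7.11 and 7.83 (5.28-fold higher in CCRF-CEM, adjusted p = 9.14e-06). ZAP70, the kinase that binds the phosphorylated chain, read 9.35, 9.26, 9.52 and 9.80 against 7.65, 7.52, 7.23 and 7.86 (3.78-fold, adjusted p = 2.09e-05). These genes kept a steady level within CCRF-CEM and did not overlap between the lines.

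The adaptors LAT and LCP2, which gather the signalling complex at the membrane, followed. LAT read 10.18, 10.42, 10.43 and 10.50 against 8.49, 7.97, 7.90 and 8.03 (-2.28 ± 0.15, adjusted p = 2.53e-05). LCP2 had means of 10.11 ± 0.13 and 8.85 ± 0.35 (-1.25 ± 0.13, adjusted p = 0.000298). RASGRP1, which links the receptor to RAS, was 4.13-fold higher in CCRF-CEM (adjusted p = 7.29e-05). THEMIS, a regulator of signalling during selection, read 8.31, 8.21, 8.44 and 8.92 against 8.21, 6.30, 6.55 and 4.29, so the scramble arrays of the lines were nearly level while the untransduced arrays lay over 4 log2 units apart (-2.13 ± 0.58, adjusted p = 0.0256). Without the untransduced pair the THEMIS difference was -1.30, and without the shTOX-2 pair it was not called (adjusted p = 0.0742). UBASH3A, a suppressor of receptor signalling, read 9.05, 8.86, 8.87 and 9.24 against 5.33, 5.01, 5.60 and 5.83 (11.8-fold higher in CCRF-CEM, adjusted p = 1.67e-06). SH2D1A, the adaptor of SLAM family receptors, read 11.08, 10.86, 10.35 and 11.03 against 7.61, 7.73, 6.43 and 8.66 (-3.22 ± 0.22, adjusted p = 2.79e-05). The adaptors SLA2 and SLA, which lower receptor levels, were 6.73-fold and 5.05-fold higher in CCRF-CEM (adjusted p = 6.28e-06 and 0.000268).

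The VAV exchange factors, which act below the receptor, split between the lines. VAV2 read 5.82, 6.18, 5.70 and 5.70 in CCRF-CEM against 7.88, 8.12, 8.09 and 7.97 in HPB-ALL, 4.49-fold higher in HPB-ALL (adjusted p = 6.88e-06). VAV1 and VAV3 were higher in CCRF-CEM by smaller amounts (-0.50 ± 0.11, adjusted p = 0.00871, and -0.62 ± 0.16, adjusted p = 0.0227). VAV3 was not called without the scramble, shTOX-1 or shTOX-2 pair (adjusted p = 0.083, 0.0762 and 0.0742), nor VAV1 without the pairing block (0.0501). The other members higher in HPB-ALL were the adaptor SKAP1 (0.70 ± 0.12, adjusted p = 0.00329), the protease MALT1 (0.66 ± 0.13, adjusted p = 0.00649) and the kinase TEC (0.59 ± 0.16, adjusted p = 0.0252). TEC was not called without the scramble, shTOX-2 or untransduced pair (adjusted p = 0.0813, 0.115 and 0.0862) or without the pairing block (0.0647). BCL10, the partner of MALT1, had means of 7.57 and 7.59 (0.02 ± 0.10, adjusted p = 0.905). The signalling chains CD3D, CD3E and CD3G and the constant regions of the receptor were not analysed here.

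**Figure D3:**
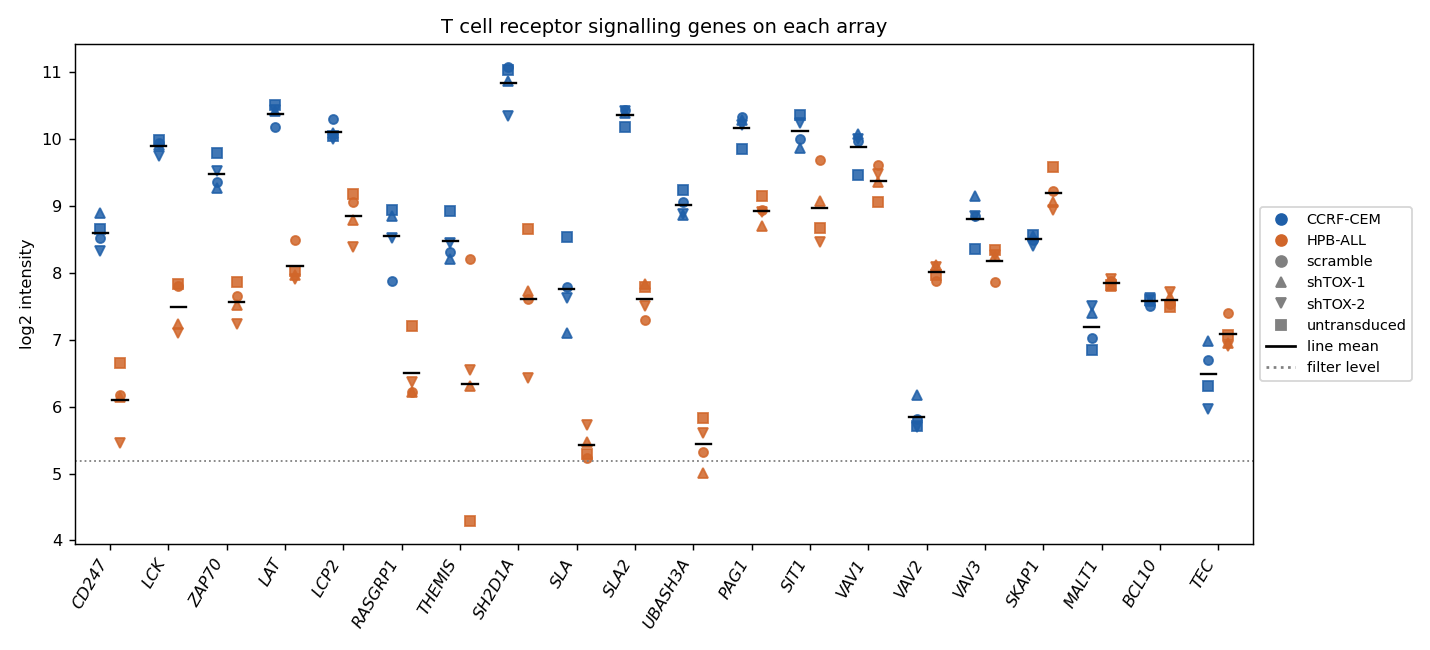
Log2 intensity (vertical axis) of T cell receptor signalling genes with 1 point per array, colour for the line, symbol for the construct, a bar for the mean of a line's 4 arrays and a dotted line at the filter level of 5.18. CCRF-CEM arrays lie above HPB-ALL arrays from CD247 to SIT1, with the scramble arrays of THEMIS nearly level, and VAV2, SKAP1 and MALT1 show the opposite order.

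Transcription factors of the T lineage differed less. Of 25 tested members 9 were called higher in CCRF-CEM and 4 in HPB-ALL, of which 3 and 2 by at least 1 log2 unit, with a median of -0.15. BCL11B, which commits progenitors to the T lineage, read 10.34, 10.22, 10.26 and 10.53 against 9.20, 8.96, 8.87 and 9.25 (-1.27 ± 0.10, adjusted p = 5.67e-05). LEF1, a partner of beta-catenin, had means of 10.65 and 9.66 (-0.99 ± 0.12, adjusted p = 0.000687), and ETS1 means of 10.14 and 9.24 (-0.90 ± 0.13, adjusted p = 0.00149). RUNX3, which acts in CD8 T cells, read 5.32, 5.43, 4.83 and 5.21 against 6.88, 6.34, 6.16 and 6.64 (1.31 ± 0.13, adjusted p = 0.000197), and ETS2 was 2.72-fold higher in HPB-ALL (adjusted p = 0.000109). ETS1 and ETS2, members of one factor family, thus differed in opposite directions. GATA3, MYB and SOX4 overlapped between the lines, with differences of 0.08 ± 0.10, 0.19 ± 0.10 and -0.03 ± 0.14 (adjusted p = 0.561, 0.193 and 0.892).

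NOTCH signalling drives T cell commitment and is often mutated in T-ALL. Of 27 tested members 7 were called higher in CCRF-CEM and 4 in HPB-ALL, together 40.7%, near the 32.6% of all tested genes. By at least 1 log2 unit, 5 (18.5%) were higher in CCRF-CEM and 3 (11.1%) in HPB-ALL, above the backgrounds of 4.5% and 3.75%. In 4 of the 27, NRARP among them, the mean of one line lay below the filter level. These passed the filter through the other line and had to differ. NOTCH1, the receptor, had means of 10.44 and 10.24 (-0.21 ± 0.10, adjusted p = 0.169). NOTCH3, a receptor that is also a NOTCH1 target, read 6.63, 7.04, 7.45 and 9.23 in CCRF-CEM against 5.10, 5.69, 5.51 and 5.50 in HPB-ALL (-2.14 ± 0.35, adjusted p = 0.00267). Its untransduced CCRF-CEM array lay above the others by more than 1 log2 unit, as it did for PTCRA, CD1A, CD1B, CD1C and CD1E. NRARP, a feedback inhibitor induced by NOTCH, read 4.92, 5.39, 5.02 and 4.71 against 7.15, 7.10, 6.91 and 7.51 (4.46-fold higher in HPB-ALL, adjusted p = 7.17e-05). The ligand DLL4 was 1.00 ± 0.13 higher in HPB-ALL (adjusted p = 0.000928). TRIB2, a pseudokinase, was 1.68 ± 0.10 higher in HPB-ALL (adjusted p = 1.08e-05), while its other probe set gave 0.17. MYC had a difference of 0.38 ± 0.13 and no call (adjusted p = 0.055).

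Among 25 tested genes of other surface antigens 7 were called higher in each line, together 56.0% beside 32.6% of all tested genes. The other 11 were not called, and the median was -0.033. The surface genes described next come from this list and from those of adhesion, of chemokine receptors and homing, and of mature thymocytes. CD44, the hyaluronan receptor, read 7.55, 7.76, 7.51 and 7.72 in CCRF-CEM against 3.63, 3.77, 3.64 and 3.43 in HPB-ALL (16.2-fold higher in CCRF-CEM, adjusted p = 8.66e-07). CD99, a sialoglycoprotein of thymocytes, read 11.71, 11.99, 11.99 and 11.93 against 9.27, 8.88, 9.09 and 8.64 (7.66-fold, adjusted p = 5.63e-06). MME, the peptidase also known as CD10 and a marker of lymphoid precursors, read 8.39, 9.33, 8.46 and 10.47 against 5.59, 4.37, 5.28 and 4.47 (18.8-fold, adjusted p = 0.000409). Each of these 3 was apart in all pairs. In CD44 and MME the HPB-ALL mean lay below the filter level, so that both passed through CCRF-CEM and had to differ. ADGRG1, an adhesion receptor of cytotoxic cells, was 11.6-fold higher in CCRF-CEM (adjusted p = 2.22e-06), and the atypical cadherin FAT1 4.76-fold (adjusted p = 1.57e-05).

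On the HPB-ALL side, ICAM1, the ligand of integrin LFA-1, read 5.93, 6.05, 5.72 and 6.80 against 8.40, 8.18, 8.15 and 8.55 (4.58-fold higher in HPB-ALL, adjusted p = 1.79e-05). ALCAM, the ligand of CD6, read 6.25, 5.83, 5.81 and 6.69 against 8.35, 8.40, 7.96 and 8.88 (4.78-fold, adjusted p = 6.28e-06), while CD6 itself was lower in HPB-ALL (-1.27 ± 0.15, adjusted p = 0.000444). CD226, an activating receptor, had means of 6.57 ± 0.73 and 8.63 ± 0.52 (SD, n = 4), and its ligand PVR means of 6.72 ± 0.13 and 7.49 ± 0.12 (2.06 ± 0.28 and 0.77 ± 0.10, adjusted p = 0.00113 and 0.000742). S1PR2 was 3.69-fold higher in HPB-ALL (adjusted p = 1.59e-05), opposite to its relative S1PR1. Of the 15 tested adhesion genes 7 were called higher in CCRF-CEM and 5 in HPB-ALL, together 80.0% beside 32.6% of all tested genes. In each direction 4 (26.7%) differed by at least 1 log2 unit, against backgrounds of 4.5% and 3.75%. In 2 of the 4 higher in CCRF-CEM by that much the HPB-ALL mean lay below the filter level, so these had to differ. All 4 tested protocadherins, cell adhesion proteins of the cadherin family, were higher in CCRF-CEM, from PCDHB13 (-3.60 ± 0.13, adjusted p = 1.67e-06) to PCDH9 (-1.34 ± 0.16, adjusted p = 0.000612). In PCDHB13 and PCDHB14 the HPB-ALL mean lay below the filter level, so that both passed through CCRF-CEM and had to differ. A further probe set of PCDH9 gave a difference of 0.12, and 23 other protocadherins lay below the filter and were not tested.

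Of 19 tested genes of cytokine receptors and JAK-STAT signalling 5 were called higher in CCRF-CEM and 4 in HPB-ALL, and 10 were not called. Of 19 tested genes of the BCL2 family and death receptors 5 were called higher in CCRF-CEM and 6 in HPB-ALL. These were 57.9%, beside the same 32.6%, and 8 were not called. JAK1, the kinase shared by many cytokine receptors, read 9.97, 10.23, 9.90 and 10.17 in CCRF-CEM against 7.85, 7.57, 7.72 and 8.23 in HPB-ALL (4.68-fold higher in CCRF-CEM, adjusted p = 1.48e-05). Its relatives JAK2, JAK3 and TYK2 were not called, with differences of 0.40 ± 0.15, -0.39 ± 0.21 and 0.14 ± 0.10 (adjusted p = 0.079, 0.198 and 0.322). IL4R was 3.19-fold higher in CCRF-CEM (adjusted p = 7.78e-05), and the kinase PIM2 2.8-fold higher in HPB-ALL (adjusted p = 5.4e-05). The antiapoptotic relatives BCL2 and BCL2L1 differed in opposite directions. BCL2 read 8.07, 8.33, 8.18 and 8.17 against 9.15, 9.59, 9.69 and 10.18 (1.47 ± 0.16, adjusted p = 0.000319), and BCL2L1 read 9.24, 9.79, 9.83 and 9.73 against 8.49, 8.64, 8.52 and 8.08 (-1.21 ± 0.15, adjusted p = 0.000656). PMAIP1, also known as NOXA, a proapoptotic relative, was 3.12-fold higher in HPB-ALL (adjusted p = 3.73e-05).

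A set of genes was near background in one line only. Below the filter level in all 4 HPB-ALL arrays and at least 2 log2 units above it in all 4 CCRF-CEM arrays were 36 genes, and 9 genes had the reverse pattern. These genes were picked on the line contrast, so their values are given as a description. C8orf88, an open reading frame gene, had the largest difference of all: it read 9.69, 9.91, 9.99 and 9.29 in CCRF-CEM against 3.69, 3.80, 4.27 and 3.81 in HPB-ALL. RORB, an orphan nuclear receptor, read 8.58, 9.02, 9.0 and 8.22 against 4.17, 4.22, 4.11 and 3.96. TSHR, the thyrotropin receptor, read 9.14, 9.77, 9.72 and 8.39 against 4.60, 4.66, 4.89 and 5.09. The levels within each line were close, with no array of HPB-ALL near those of CCRF-CEM. DSG2, a desmosomal cadherin, had means of 8.20 ± 0.42 and 3.58 ± 0.18 (SD, n = 4), GPC3, a glypican, 8.77 ± 0.67 and 4.53 ± 0.28, and CTPS2, which makes cytidine nucleotides, 7.81 ± 0.10 and 3.59 ± 0.25. MNS1, a gene of sperm flagella and cilia, had means of 8.87 and 3.91, and NETO1, a receptor accessory protein, 8.56 and 3.85.

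In the reverse pattern, PLEK, a protein kinase C substrate of blood cells, read 4.19, 4.02, 4.16 and 4.45 in CCRF-CEM against 8.96, 9.40, 8.86 and 9.80 in HPB-ALL. RGN, a calcium-binding protein, read 4.35, 4.50, 4.54 and 4.16 against 9.0, 8.89, 8.72 and 9.14. BAMBI, a decoy receptor of the TGF-beta family, read 4.58, 4.53, 4.48 and 4.74 against 7.95, 8.56, 7.63 and 9.31. The HPB-ALL arrays of BAMBI spread more widely than those of RGN, and neither gene came near an overlap. The remaining members were the pseudogene CEP192P1, the antisense genes PROSER2-AS1, FAM222A-AS1 and STXBP5-AS1, OSBPL6, which encodes an oxysterol-binding protein relative, and IFIT3. CEP192P1 had means of 3.40 and 8.69, and its probes may also pick up the parent gene; its probe sets gave differences from 0.42 to 5.29. STXBP5-AS1, with means of 2.85 and 7.44, fell below the filter on the mean of all arrays and was not tested. Other large differences with CCRF-CEM above or near the filter level were CYTL1, a secreted protein first found in CD34 cells (27.2-fold higher in HPB-ALL, adjusted p = 1.57e-05), the kinase TNIK (14.7-fold, adjusted p = 2.39e-05) and SPRY2, an inhibitor of RAS signalling (10.8-fold, adjusted p = 3.99e-06).

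Zinc finger genes, many of which encode KRAB repressors that silence transposable elements, made up several of the genes near background in HPB-ALL. The list was defined by the symbol prefixes ZNF, ZFP, ZSCAN and ZKSCAN and so holds a few proteins of other kinds and lacks others, such as ZIK1. Of 415 tested genes, 88 were called higher in CCRF-CEM and 81 in HPB-ALL; the median was 0.035. Past 1 log2 unit the counts were 48 (11.6%) and 4 (1.0%), against backgrounds of 4.5% and 3.75%. In 25 of the 48 (52.1%) the HPB-ALL mean lay below the filter level, so that these passed through CCRF-CEM and had to differ; over all 402 genes with such a difference, 172 (42.8%) did. With the filter at the 60th percentile the counts were 18 and 2 of 265. Leaving out each construct in turn gave 44 to 51 and 3 to 9, the 9 being without the scramble arrays. On chromosome 19, where these genes form clusters, 35 of 192 tested zinc finger genes (18.23%) were at least 1 log2 unit higher in CCRF-CEM and 1 (0.52%) in HPB-ALL. Of the other 577 tested genes of that chromosome, 9 (1.56%) and 28 (4.85%) were. Outside chromosome 19, 13 of 223 zinc finger genes (5.83%) were higher in CCRF-CEM by that much and 3 (1.35%) in HPB-ALL. The 4 past 1 log2 unit in HPB-ALL, named after their values were seen, were ZNF185, which encodes a LIM domain protein, ZNF296, ZSCAN9 and ZNF33B; the ZNF33B call was lost without the shTOX-1, shTOX-2 or untransduced pair (adjusted p = 0.0538, 0.0874 and 0.0538).

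ZNF43 read 9.87, 9.52, 9.79 and 9.58 in CCRF-CEM against 4.40, 4.0, 4.47 and 4.14 in HPB-ALL, 43.2-fold higher in CCRF-CEM. ZNF141 read 9.30, 8.59, 8.99 and 10.07 against 3.48, 4.16, 3.18 and 3.74, and ZNF184 read 9.01, 8.85, 8.56 and 9.41 against 3.83, 4.13, 3.88 and 4.36. In these 3 genes the CCRF-CEM arrays lay over 4 log2 units above the HPB-ALL arrays of the same construct. ZNF280D had means of 8.42 and 4.31, ZNF506 7.76 and 4.15, ZNF486 7.76 and 4.42, and ZNF90 7.62 and 4.32. Paralogs of this family share sequence, so probe sets can pick up near copies. The bases before 2 starts are shown as examples of members near background in HPB-ALL, again 250 bases from RefSeq on GRCh38.p14 with CG dinucleotides in capitals: ZNF184 at chr6:27473106-27473355, minus strand, and ZNF43 at chr19:21836183-21836432, minus strand.
ZNF184: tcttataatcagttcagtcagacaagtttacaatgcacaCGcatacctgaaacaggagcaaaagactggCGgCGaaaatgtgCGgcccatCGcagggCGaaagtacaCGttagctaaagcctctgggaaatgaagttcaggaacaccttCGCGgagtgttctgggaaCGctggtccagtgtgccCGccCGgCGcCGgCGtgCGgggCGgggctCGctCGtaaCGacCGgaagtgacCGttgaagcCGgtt
ZNF43: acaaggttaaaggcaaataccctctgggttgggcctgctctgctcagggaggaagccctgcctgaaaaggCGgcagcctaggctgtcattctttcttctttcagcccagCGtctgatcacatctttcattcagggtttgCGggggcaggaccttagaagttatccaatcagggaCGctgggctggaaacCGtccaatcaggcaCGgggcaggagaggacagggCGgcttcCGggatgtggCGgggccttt
ZNF184 holds 23 and ZNF43 9 CG dinucleotides in this window. Of the 36 genes near background in HPB-ALL, 31 had an entry, with a median of 21 and 24 (77.4%) holding at least 10, beside a median of 21 and 84.6% over all tested genes. Among the 43 zinc finger genes past 1 log2 unit in CCRF-CEM with an entry the median was 17 and 74.4% held at least 10, against a median of 18.5 and 91.1% in the 316 other tested zinc finger genes with an entry. Over all 323 genes called at least 1 log2 unit higher in CCRF-CEM that had an entry, the median was likewise 17 and 69.3% held at least 10.

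**Figure D4:**
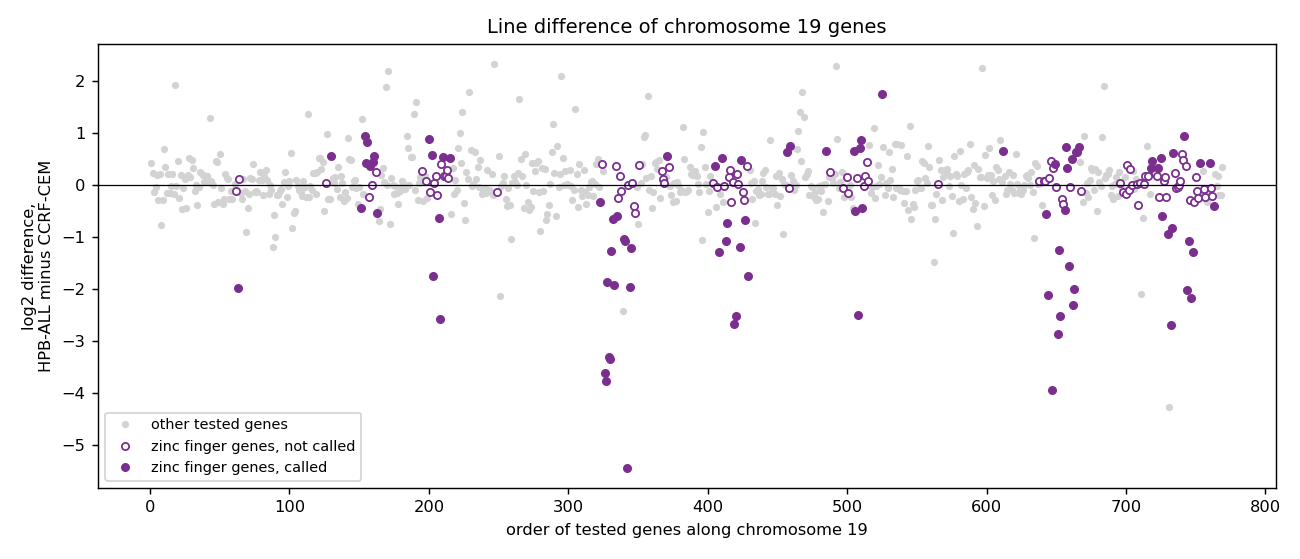
Log2 difference, HPB-ALL minus CCRF-CEM (vertical axis), of the tested genes of chromosome 19 in their order along it (horizontal axis, rank), with zinc finger genes filled where called at an adjusted p under 0.05, open where not, and other genes in grey. Called zinc finger genes reach -5.43 at ZNF43 and lie in groups, and 35 of 192 are at least 1 log2 unit higher in CCRF-CEM.

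Interferon-response genes, which are switched on by viral sensing and by interferon, were called in both directions. Of 35 tested genes 11 were higher in HPB-ALL and 12 in CCRF-CEM, 6 and 7 of them by at least 1 log2 unit, with a median of -0.042. The calls of either direction were 65.7% of the tested members, beside 32.6% of all tested genes. Past 1 log2 unit they were 37.1%, against a background of 8.25%. In 8 of the 35 the mean of one line lay below the filter level, so that these passed through the other line and had to differ. Among them were 3 of the 7 past 1 log2 unit in CCRF-CEM. The IFIT genes, whose proteins bind viral RNA, were higher in HPB-ALL. IFIT3 read 4.44, 4.77, 4.39 and 3.84 in CCRF-CEM against 8.19, 8.78, 9.17 and 7.30 in HPB-ALL (16-fold higher in HPB-ALL, adjusted p = 5.63e-06). IFIT2 read 3.55, 4.24, 3.69 and 4.0 against 7.31, 7.42, 8.02 and 6.47 (10.8-fold, adjusted p = 5.32e-05). IFIT1 read 4.21, 4.12, 3.95 and 3.65 against 6.80, 6.91, 7.24 and 5.20 (5.89-fold, adjusted p = 0.000171). In all 3 the CCRF-CEM arrays lay below the filter level, so that these genes passed through HPB-ALL and had to differ. Within HPB-ALL the untransduced array was the lowest and the shTOX-2 array the highest. IFIT5 was measured well above the filter level in both lines, with means of 7.64 ± 0.29 and 9.18 ± 0.31 (1.54 ± 0.13, adjusted p = 9.77e-05). RSAD2, an antiviral enzyme, was 4.33-fold higher in HPB-ALL (adjusted p = 2.81e-05), and CGAS, the sensor of cytosolic DNA, 3.47-fold (adjusted p = 7.21e-05).

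Other interferon-response genes were higher in CCRF-CEM or not called. XAF1, a proapoptotic protein, read 9.20, 9.07, 9.13 and 9.30 against 5.68, 6.22, 5.89 and 5.84 (9.64-fold higher in CCRF-CEM, adjusted p = 2.53e-06). The guanylate-binding proteins, GTPases induced by interferon gamma, were higher in CCRF-CEM: GBP3 by 1.96 ± 0.11 (adjusted p = 1.07e-05), GBP4 by 2.87 ± 0.54 (adjusted p = 0.00515) and GBP5 by 1.66 ± 0.32 (adjusted p = 0.00552). GBP4 read 7.26, 8.27, 7.88 and 4.48 in CCRF-CEM, so that the untransduced array alone lay near the HPB-ALL values of 3.79 to 4.33. ISG15, MX2 and IFIH1 overlapped, with differences of -0.09 ± 0.09, 0.42 ± 0.18 and 0.12 ± 0.10 (adjusted p = 0.492, 0.109 and 0.41). The list thus split between the lines.

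The starts of IFIT1 and IFIT3 are shown because 4 IFIT neighbours on chromosome 10 were higher together. The windows are 250 bases before the start from RefSeq on GRCh38.p14, IFIT1 at chr10:89392373-89392622, plus strand, and IFIT3 at chr10:89327747-89327996, plus strand; capitals mark GAAA, any 2 bases and GAAA again on either strand, the core of the interferon-stimulated response element.
IFIT1: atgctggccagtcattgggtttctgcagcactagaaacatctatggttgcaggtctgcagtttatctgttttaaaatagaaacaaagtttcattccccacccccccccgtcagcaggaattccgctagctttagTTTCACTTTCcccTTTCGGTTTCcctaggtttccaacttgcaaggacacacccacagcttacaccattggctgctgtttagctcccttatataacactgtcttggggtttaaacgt
IFIT3: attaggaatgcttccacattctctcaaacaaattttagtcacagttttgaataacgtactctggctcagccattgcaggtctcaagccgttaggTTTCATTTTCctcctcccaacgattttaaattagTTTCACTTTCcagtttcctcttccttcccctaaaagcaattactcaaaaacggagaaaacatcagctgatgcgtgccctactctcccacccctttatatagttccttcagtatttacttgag
Both matches of each gene lie on the opposite strand, starting 103 and 116 bases before the start in IFIT1 and 122 and 156 in IFIT3. The motif, searched on both strands, was in 2.161% of all tested genes with an entry and in 13 of 24 tested interferon-response genes (54.167%). It was in 4 of 6 called higher in HPB-ALL and in 1 of 8 called higher in CCRF-CEM. A match describes letters only, and binding was not measured.

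Whether the line difference depended on the construct was asked by interaction terms. Between the shTOX pairs and the control pairs 0 genes were called (0% of 8930, lowest adjusted p = 0.811), with 410 at an unadjusted p under 0.05. Between the transduced pairs and the untransduced pair 6 genes were called (0.0672%), with 425 at an unadjusted p under 0.05. Chance alone would give about 446 genes at that unadjusted threshold, so neither the 410 nor the 425 exceeds it. The untransduced state has 1 array a line, assumed to vary like the others, and no gene here can be checked on a second untransduced array. With construct as a block 4 genes were called, 3 of the 6 among them: HBEGF, GFRA4 and CR2 kept the call (adjusted p = 0.028, 0.0209 and 0.028), while CD34, CTSG and ZNF555 did not (0.0512, 0.0836 and 0.118). With the filter at the 60th percentile 0 genes were called and CTSG alone of the 6 was tested (0.0601), and ZNF555 lost its call under quantile normalization (0.0508). HBEGF, an epidermal growth factor receptor ligand, read 5.54, 5.87, 5.75 and 10.46 in CCRF-CEM against 4.86, 4.86, 4.85 and 6.79 in HPB-ALL. The untransduced array was the highest of either line, and the line difference was 2.80 ± 0.25 more positive in transduced pairs (adjusted p = 0.00967). CD34, a marker of progenitors, read 8.05, 8.48, 8.55 and 5.52 against 4.70, 4.29, 4.53 and 5.05, low in the untransduced CCRF-CEM array (-3.38 ± 0.34, adjusted p = 0.0109).

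In the other 4 genes the untransduced CCRF-CEM array was the highest of its line. GFRA4, a receptor of the GDNF family, read 5.91, 5.37, 5.85 and 8.86 in CCRF-CEM against 4.84 to 5.31 in HPB-ALL (3.38 ± 0.35, adjusted p = 0.0109). CR2, the complement receptor of B cells and some thymocytes, read 5.53, 5.41, 4.91 and 8.16 against 4.33 to 4.58 (3.0 ± 0.34, adjusted p = 0.0186). CTSG, the granule protease cathepsin G, read 7.71, 7.90, 7.92 and 10.26 against 11.49, 11.72, 11.50 and 11.89, higher in HPB-ALL in every pair but less so in the untransduced one (2.10 ± 0.26, adjusted p = 0.0246). ZNF555 read 6.11, 6.11, 5.93 and 7.42 against 4.66, 4.38, 4.84 and 3.79 (2.22 ± 0.29, adjusted p = 0.0412). Here the untransduced HPB-ALL array was also the lowest of its line. VEGFA, an angiogenic growth factor, was not among the 6, yet in CCRF-CEM it read 5.22, 4.91, 5.02 and 7.65 against 8.81, 8.57, 8.20 and 8.81 in HPB-ALL (7.45-fold higher in HPB-ALL, adjusted p = 0.00088).

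**Figure D5:**
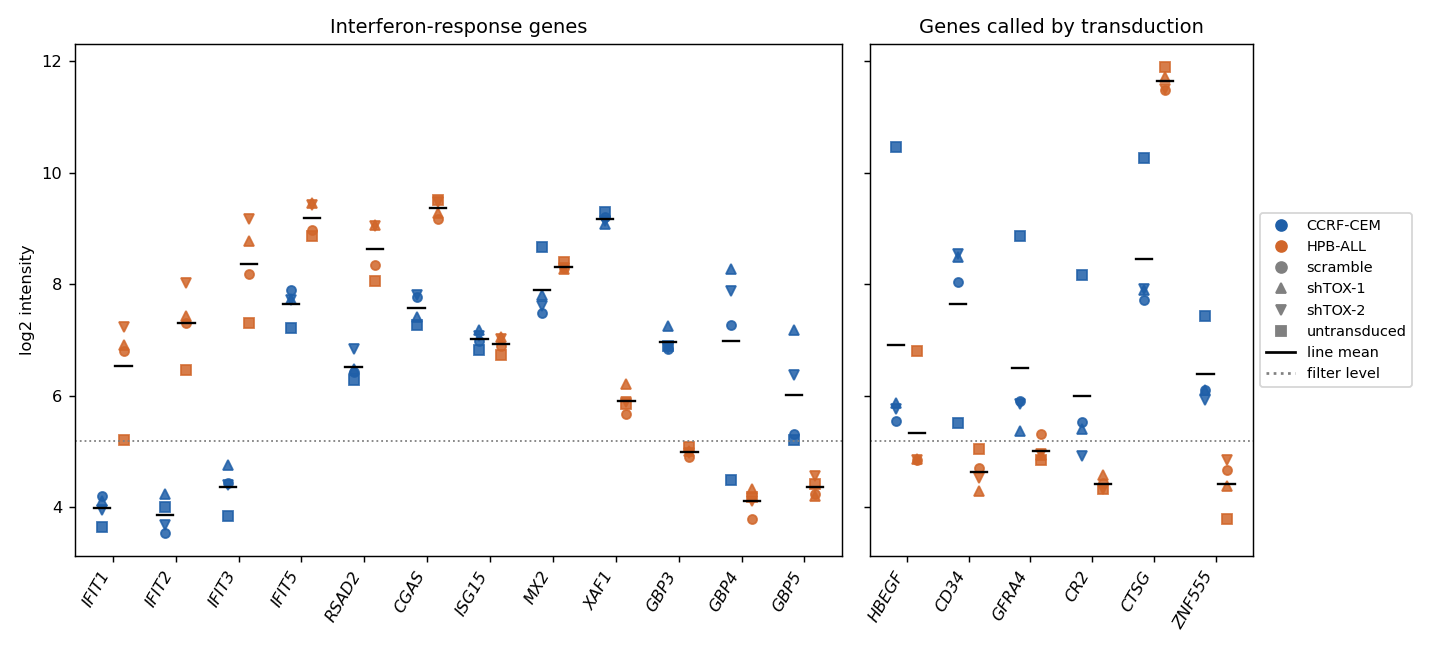
Log2 intensity (vertical axis) of interferon-response genes (left) and of the 6 genes whose line difference was called between transduced pairs and the untransduced pair (right), with 1 point per array, colour for the line, symbol for the construct, a bar for the mean of a line's 4 arrays and a dotted line at the filter level of 5.18. IFIT1, IFIT2 and IFIT3 lie below that level in CCRF-CEM, and the untransduced CCRF-CEM array stands apart from the other 3 for each gene on the right.

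Markers of other cell types were read for the whole lists. The mean log2 level over 12 measured T cell markers was 8.54 to 8.95 in CCRF-CEM arrays and 6.84 to 7.36 in HPB-ALL arrays, and 10 of 11 tested were called higher in CCRF-CEM. Over 15 measured myeloid markers it was 5.10 to 5.32 and 5.68 to 5.97, and 5 of 8 tested were called higher in HPB-ALL, among them CTSG (3.21 ± 0.34, adjusted p = 0.000297), SPI1, a myeloid transcription factor (0.90 ± 0.14, adjusted p = 0.00226), and TYROBP, an adaptor of myeloid and NK cells (1.03 ± 0.27, adjusted p = 0.0212). TYROBP was not called without the scramble or the untransduced pair (adjusted p = 0.0864 and 0.0582). MPO, the granule peroxidase, read 4.47, 5.45, 4.94 and 4.65 against 7.03, 5.10, 7.94 and 4.83, with overlap and no call (adjusted p = 0.0876). The median difference of the 8 tested was 0.825. Of the 15 measured myeloid markers, CD14, CSF1R, CSF3R, S100A8 and S100A12 lay below the filter level in all 8 arrays. Over 14 B cell markers the means were 4.76 to 5.01 and 4.73 to 4.98, with 8 markers below the filter level in all 8 arrays. Over 10 NK cell markers they were 5.61 to 5.94 and 5.52 to 5.85. Of 6 tested, 4 were called higher in CCRF-CEM and 0 in HPB-ALL, and the median difference was -0.751. This NK count depended on the filter. With no filter all 10 were tested, and HPB-ALL was called higher for 2, each by at least 1 log2 unit. CCRF-CEM was then called higher for 4, of which 2 passed that margin. The median without a filter was -0.318. The part of any of these in the differences above was not tested.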

How the data were processed

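The authors deposited log2 intensities per probe set for 8 arrays; how they were summarized and normalized, and with which software, is not given in the sources used here. Of 53617 probe sets, 16098 had exactly 1 gene symbol through the platform annotation, each matched by Entrez ID. The other 37519, with no symbol or more than 1, were left out. The probe set with the highest mean stood for each of 14884 genes, and 8930 genes passed the filter. The fit was limma 3.58.1 (R 4.3.3) with construct as block and line as term, Benjamini-Hochberg adjusted over all tested genes; errors after ± on differences are standard errors. Construct pairs the arrays by their labels: deviations from the line means correlated at 0.574 (untransduced), 0.378 (shTOX-2), 0.243 (shTOX-1) and -0.08 (scramble) over genes. The interactions were fitted on means of each line and state. Named genes were the 20 largest separated calls a direction, the 20 largest genes near background a direction, list members (up to 10 from lists defined by prefix) and up to 5 genes a direction per interaction. The members and lists were chosen with earlier results of these data known. The scripts were tested on simulated data. With 4 arrays a line, their number limits the precision. Filter, pairing, normalization, probe-set rule, test and each pair left out were alternatives. The counts of list members with a pair left out were added after seeing the data.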

Additional observations from a re-analysis of the deposited data

Results flagged for a closer look

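For each of the 149 named genes the 4 arrays of each line were searched for one array far from the other 3, and 22 of 298 sets of 4 (7.4%) held one, where chance gives about 1 in 20. That rate does not apply to the genes named for the interaction with transduction, whose choice favours an untransduced array that stands apart; without these 6 genes the count was 16 of 286 (5.6%). In CCRF-CEM the untransduced array stood apart for 8 genes, 5 of them from that interaction. It was highest for CCR9 at 9.06 (others 6.17 to 6.64), CTSG at 10.26 (7.71 to 7.92), GFRA4 at 8.86 (5.37 to 5.91), HBEGF at 10.46 (5.54 to 5.87) and RAG2 at 10.58 (9.28 to 9.46). It was also highest for VEGFA at 7.65 (4.91 to 5.22) and ZNF555 at 7.42 (5.93 to 6.11), and lowest for CD34 at 5.52 (8.05 to 8.55). In HPB-ALL the untransduced array was highest for HBEGF at 6.79 (4.85 to 4.86), RASGRP1 at 7.20 (6.22 to 6.37), NOTCH1 at 10.65 (10.07 to 10.13), CD6 at 6.10 (5.60 to 5.66) and MX2 at 8.40 (8.27 to 8.29).

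Smaller gaps came from other arrays. The scramble array was lowest in CCRF-CEM for BCL2L1 at 9.24 (9.73 to 9.83) and highest for CEP192P1 at 3.95 (3.13 to 3.26). In HPB-ALL it was lowest for CD1C at 4.02 (4.46 to 4.48), VAV3 at 7.86 (8.26 to 8.34) and ZNF33B at 7.95 (8.74 to 8.85). The shTOX-2 array of HPB-ALL was highest for IL4R at 6.43 (6.25 to 6.26) and MEIS2 at 6.97 (6.47 to 6.54) and lowest for ZNF280D at 3.87 (4.43 to 4.48). The shTOX-1 array of CCRF-CEM was highest for GBP3 at 7.25 (6.84 to 6.89).

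The line difference in transduced pairs minus that in the untransduced pair was called for 6 genes by the limma interaction term: HBEGF at 2.80, CD34 at -3.38, GFRA4 at 3.38, CR2 at 3.0, CTSG at 2.10 and ZNF555 at 2.22. Each rests on 1 untransduced array a line.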

How the results depend on the processing

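Without construct as a pairing block 1174 genes were called higher in HPB-ALL and 1001 in CCRF-CEM, and 119 of 125 named calls were kept; in the interaction with transduction a construct block gave 4 genes, of which HBEGF, GFRA4 and CR2 were among the 6. Leaving out each pair gave 993 to 1417 genes called higher in HPB-ALL, the lowest without the shTOX-2 pair, and 116 or more named calls kept each time. A test against 1 log2 unit called 116 genes higher in HPB-ALL and 207 in CCRF-CEM. A filter at the 60th percentile left 187 and 168 genes past 1 log2 unit, since fewer genes were tested, 4 genes near background in CCRF-CEM and 10 in HPB-ALL, and 0 genes in the interaction with transduction. No filter gave 12 genes in that interaction. A filter at the 20th percentile gave 2 and 11 genes near background, and a margin of 1 log2 unit 26 and 84. Genes near background cannot be counted with no filter, which sets no level.

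Signs turned only for genes without a call. Under quantile normalization BCL10 was at -0.019 and TLX3 at 0.048. With each pair left out, BCL10 ranged from -0.0042 to 0.059, RAG2 from -0.32 to 0.058, SOX4 from -0.14 to 0.093 and TLX3 from -0.15 to 0.0076. The median of the interferon list was 0.0838 with the filter at the 60th percentile and 0.00283 without the shTOX-2 pair, and that of the zinc finger list -0.00447 without the shTOX-1 pair. These small values had no settled sign, and the cause was not tested. Intensities near the filter level limit what can be said of low genes.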

Other observations

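Homeobox and developmental signalling genes were read as further lists. Of 13 tested genes of the HOX list 5 were called higher in HPB-ALL and 0 in CCRF-CEM by limma. These 5 are 38.5%, beside 32.6% of all tested genes called and 17.7% called higher in HPB-ALL. In 3 of the 13, HOXC9 among them, the mean of one line lay below the filter level. These passed the filter through the other line and had to differ. HOXC9, a posterior HOX gene, read 4.62, 5.06, 4.98 and 4.81 in CCRF-CEM (scramble, shTOX-1, shTOX-2, untransduced) and 6.67, 6.84, 7.10 and 7.77 in HPB-ALL, so every HPB-ALL array was above every CCRF-CEM array (2.23 ± 0.18, adjusted p = 7.41e-05). MEIS2, a HOX cofactor, was 3.21-fold higher in HPB-ALL (log2 difference 1.68, adjusted p = 1.86e-05), while its other probe set gave 0.27. Of 19 tested genes of WNT and developmental signalling 7 were called higher in HPB-ALL and 6 in CCRF-CEM, together 68.4%. By at least 1 log2 unit, 5 (26.3%) differed in each direction, against backgrounds of 4.5% and 3.75%. In 5 of the 19 the mean of one line lay below the filter level. Among these were 4 of the 5 past 1 log2 unit in CCRF-CEM, which passed through CCRF-CEM and had to differ. ZNRF3, a ligase that removes WNT receptors, read 5.26, 5.51, 5.05 and 5.21 against 7.65, 7.81, 8.05 and 7.72 (5.85-fold higher in HPB-ALL, adjusted p = 7.64e-06). GLI3, a hedgehog transcription factor, was 2.20 ± 0.16 higher in HPB-ALL (adjusted p = 4.14e-05), and SMAD6, an inhibitor of BMP signalling, was 2.10 ± 0.23 higher in CCRF-CEM (adjusted p = 0.000349).

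Some called genes that are neighbours in the order of tested genes differed the same way. In 15 runs at least 4 consecutive tested genes were all called in 1 direction by at least 0.5 log2 units, 10 higher in CCRF-CEM and 5 in HPB-ALL. These runs were sought after the values were seen and carry no test, and the number expected by chance was not computed. The longest held 8 zinc finger genes of chromosome 19, from ZNF506 to ZNF85, all higher in CCRF-CEM by 0.66 to 3.77. The next held 6 genes of chromosome 1, KIRREL1 and the 5 CD1 genes, higher in CCRF-CEM by 1.75 to 4.61. On chromosome 10, IFIT2, IFIT3, IFIT1 and IFIT5 formed a run of 4, higher in HPB-ALL by 1.54 to 4.0.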
